A study of Homo sapiens with 4 samples.

Results

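The aldo-keto reductases and the carbonyl reductases are cytosolic enzymes that use NADPH to reduce aldehydes and ketones. Several of them reduce the carbonyl of doxorubicin (doxo) and other anthracyclines to an alcohol, a product that is generally less toxic to tumor cells. The AKR1C enzymes also reduce steroids and prostaglandins, and *AKR1C1* and *AKR1B10* are known targets of the transcription factor NRF2, which answers to oxidants and electrophiles. The 10 genes described here are *AKR1C1*, *AKR1C2*, *AKR1C3*, *AKR1C4*, *AKR1B1*, *AKR1B10*, *AKR1A1*, *AKR7A2*, *CBR1*, and *CBR3*, chosen by name as reductases that handle anthracyclines, out of 18449 genes in the count table. They were chosen with the comparison of treated and untreated libraries in view, so their values in that comparison are a description.

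RNA came from BT-16 and CHLA-266, 2 established cell lines of atypical teratoid/rhabdoid tumors of the MYC subgroup (AT/RT-MYC), a brain tumor of early childhood. Untreated cells of each line were compared with cells of the same line that had received 1 µM doxo, then 5 µM etoposide (eto), then 1 µM vincristine (vin) and had grown again from the few survivors. Each line gave 1 untreated and 1 treated library, so each condition rested on 2 libraries with the lines as replicates. Each line is 1 culture, and a difference in response between the lines could not be tested.

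Total counts lay between 49849257 and 75087193, with the lower total in the treated library of both lines, while more genes were detected in the treated libraries (17815 and 17114) than in the untreated ones (16079 and 15464). The sample annotation used here lists no batch, and a batch difference between the 4 libraries was not tested. AT/RT lack the protein SMARCB1 as a rule, and *SMARCB1* RNA was nevertheless counted in every library, at 827 to 1394 counts, so its RNA gives no check of the label. Reads of olfactory receptor genes, which neither line should use, were found for 31.9% and 23.7% of 389 such genes in untreated BT-16 and CHLA-266 cells and for 77.1% and 55% in treated cells. In bulk RNA, more cells that express a gene and more RNA per cell cannot be told apart.

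*AKR1C1* to *AKR1C4* lie near each other on chromosome 10 of hg38 and have similar coding sequences, which bears to differing degrees on the AKR1C values that follow. In GENCODE 44, *AKR1C1* (ENSG00000187134, plus strand) spans positions 4963253 to 4983283, *AKR1C2* (ENSG00000151632, minus strand) 4987775 to 5018031, *AKR1C3* (ENSG00000196139, plus strand) 5035354 to 5107686, and *AKR1C4* (ENSG00000198610, plus strand) 5195462 to 5218949. The coding sequences of *AKR1C1* and *AKR1C2* were 98% identical and differed at 19 of 972 bases, with a longest shared run of 189 bases. *AKR1C3* differed from *AKR1C1* at 83 bases (91.5% identity) and *AKR1C4* at 112 bases (88.5% identity). The stretch from base 853 to base 942 of the coding sequence, counted from 1 at the start codon, is shown because its bases alone cannot tell the first 2 genes apart. A read that reaches past it, or the other read of a pair, may still do so. Capitals mark bases that differ from *AKR1C1*, of which *AKR1C2* had 0, *AKR1C3* 15, and *AKR1C4* 23.
AKR1C1: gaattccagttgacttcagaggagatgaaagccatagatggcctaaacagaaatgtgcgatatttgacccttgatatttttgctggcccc
AKR1C2: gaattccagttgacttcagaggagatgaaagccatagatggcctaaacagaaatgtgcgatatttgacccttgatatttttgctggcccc
AKR1C3: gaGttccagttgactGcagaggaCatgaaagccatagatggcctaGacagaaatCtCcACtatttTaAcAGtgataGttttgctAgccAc
AKR1C4: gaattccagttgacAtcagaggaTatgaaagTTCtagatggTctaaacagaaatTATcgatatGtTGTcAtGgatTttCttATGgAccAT

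To see how far reads could be shared, every stretch of 100 bases in the main transcript of each gene was looked up in the transcripts of all other genes. The other read of a pair was not considered. For *AKR1C2*, 27.8% of these stretches occurred in another gene, nearly all of them in *AKR1C1* (25.6%). The share was 12.6% for *AKR1C1*, 7.82% for *AKR1C3*, and 0.549% for *AKR1C4*. Outside the AKR1C group, the share was 0 for *AKR1B1*, *AKR1A1*, and *CBR3*, 0.397% for *AKR7A2*, and 1.97% for *AKR1B10*, whose partners were *AKR1B15* and a pseudogene. *CBR1* shared 25.4% of its stretches with ENSG00000289001, another gene of the annotation. The sources used here do not state how reads that match more than a single gene were counted.

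The regions in front of the RefSeq starts of *AKR1C1* and *AKR1C2* were also alike, with 96.5% identity over the 250 bases before the start (GRCh38.p14). This is 245 of 254 aligned columns. The annotated starts are offset by a few bases, and bases without a partner count as unlike in this figure. Against *AKR1C1*, the same region of *AKR1C3* had 70.7% identity at one annotated start and 69.2% at the other, and that of *AKR1C4* 58.7%. The 120 bases before the start are shown for the pair, at chr10:4963295-4963414 on the plus strand for *AKR1C1* and chr10:5003858-5003977 on the minus strand for *AKR1C2*. Both stretches lie inside the GENCODE gene spans given above, so they precede these starts but not the whole genes. Capitals mark the 5 bases of each that have no equal in the stretch shown for the other. The run CACA in *AKR1C1* and the run ATTT in *AKR1C2* reach past the end of the other stretch and were not compared.
AKR1C1: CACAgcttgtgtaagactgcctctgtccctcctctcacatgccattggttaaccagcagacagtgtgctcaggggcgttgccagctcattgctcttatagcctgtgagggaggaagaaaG
AKR1C2: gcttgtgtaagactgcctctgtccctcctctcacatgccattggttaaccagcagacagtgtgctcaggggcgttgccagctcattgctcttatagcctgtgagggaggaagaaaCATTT

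The core of the antioxidant response element, the site that NRF2 binds, was searched as TGACNNNGC on both strands of the RefSeq promoter windows (250 bases before to 50 bases after a start). Among 35116 such windows of 300 bases, 13.3% held it. Of the 10 genes, 8 were in the promoter table, with 11 windows, and *AKR1B10* and *CBR3* were not. *CBR1* held 1 match, on the strand opposite to the gene, and *AKR7A2* held 3, of which 2 are shown. The letters were not found in the windows of *AKR1C1*, *AKR1C2*, *AKR1C3*, *AKR1C4*, *AKR1B1*, and *AKR1A1*, which says only that these windows do not contain them. Capitals mark the match in *CBR1* (chr21:36069845-36069893, plus strand) and in *AKR7A2* (chr1:19312274-19312322 and chr1:19312213-19312261, minus strand).
CBR1: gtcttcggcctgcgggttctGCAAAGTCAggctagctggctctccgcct
AKR7A2, first: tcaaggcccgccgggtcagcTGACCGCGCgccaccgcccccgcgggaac
AKR7A2, second: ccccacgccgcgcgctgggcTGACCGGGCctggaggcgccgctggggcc

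After treatment, most of the 10 reductase genes were higher in both cell lines, the AKR1C and AKR1B genes by the most. In edgeR's quasi-likelihood test over 18066 genes (adjusted p value under 0.05), 6 of the 10 were counted as higher, namely *AKR1C1*, *AKR1C2*, *AKR1C3*, *AKR1B1*, *AKR1B10*, and *CBR1*, and 1 as lower, *AKR7A2*. Of all genes tested, 16.1% were higher and 19.1% lower by the same measure. *AKR1C4*, *AKR1A1*, and *CBR3* did not pass the threshold. In the paired form of the test, with a block for the cell line, 7 genes were counted as higher, *AKR1A1* being added. Over the 9 genes above 3 counts in a library, which leaves out *CBR3*, the median log2 fold change was 3.0, and over all genes tested 0.24. Both treated libraries lay above both untreated ones for 8 of the 10 genes (40.2% of all genes) and below them for 1 (32.3% of all genes). Since the genes were selected on this comparison, no conclusion was drawn from these counts.

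**Figure D1:**
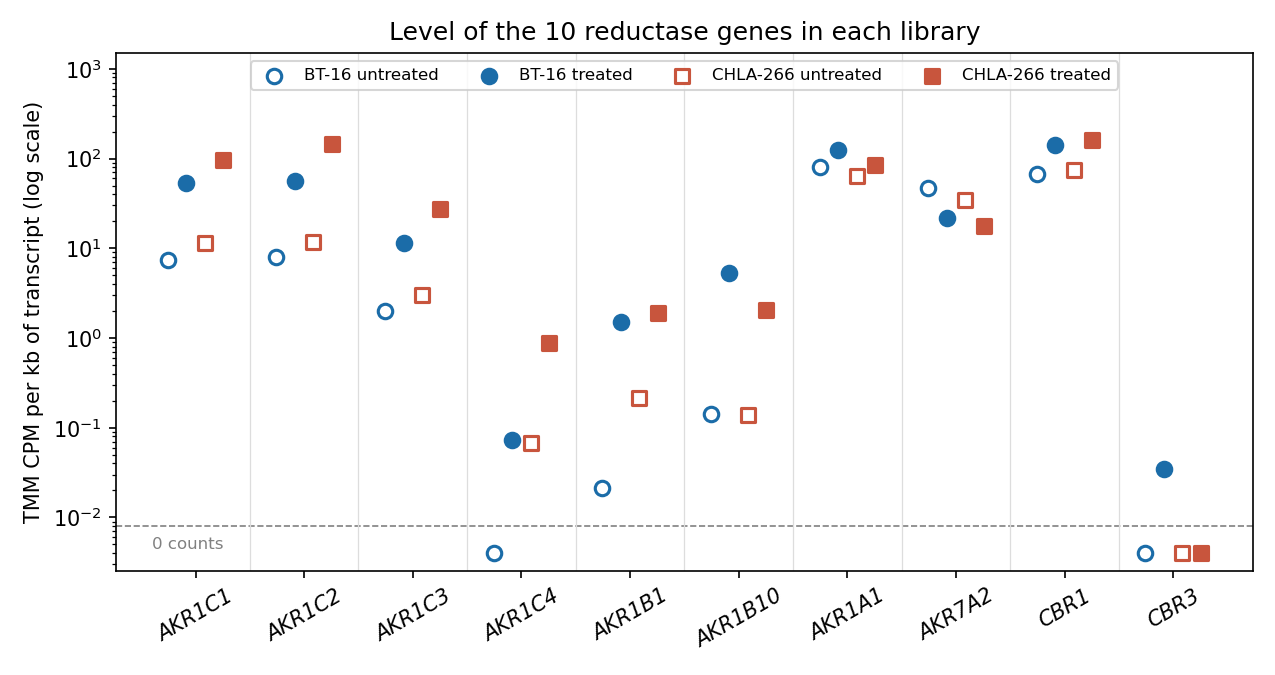
Level of the 10 genes in each library, in CPM (counts scaled to a common library size with TMM normalization) per kilobase of the main transcript, on a log scale, with 1 point per library (circles BT-16, squares CHLA-266, filled after treatment). Points under the dashed line had 0 counts, and filled points lie above open points of the same line for every gene but *AKR7A2* and, in CHLA-266, *CBR3*.

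Per length of the main transcript, *AKR1A1* and *CBR1* were the leading members in untreated cells, whereas per length of all annotated exons *AKR7A2* (36.3), *AKR1A1* (36.1), and *CBR1* (33.3 CPM per kilobase) were close together in untreated BT-16 cells. *AKR1A1*, aldehyde reductase, had 80.1 (BT-16) and 64 (CHLA-266) CPM per kilobase, and *CBR1*, carbonyl reductase 1, had 67.5 and 74.4, so that their order differed between the lines. *AKR7A2*, an aflatoxin aldehyde reductase, followed with 47.5 and 34.2 CPM per kilobase. *AKR1C2* (8.03 and 11.8) and *AKR1C1* (7.45 and 11.3) were next with overlapping ranges, and *AKR1C3* had 2.02 and 3.04 CPM per kilobase. *AKR1B10* (0.143 and 0.14) and *AKR1B1* (0.0213 and 0.215) were the lowest in CPM per kilobase of the members counted in both untreated libraries.

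In treated cells, *CBR1* was the highest member of both lines per length of the main transcript, with 143 (BT-16) and 162 (CHLA-266) CPM per kilobase. Without division by length, *AKR1C1* (353 and 628 CPM) and *AKR1C2* (182 and 463 CPM) lay above *CBR1* (173 and 196 CPM). *AKR1C2* (56.5 and 144) and *AKR1C1* (54 and 96) now overlapped with *AKR1A1* (123 and 84.2) in CPM per kilobase. *AKR1C3* (11.5 and 27.5) overlapped with *AKR7A2* (21.6 and 17.7). The order of *AKR1C1* and *AKR1C2* depends on the length used, since their main transcripts measure 6543 and 3215 bases. Per kilobase of all annotated exons, *AKR1C1* was the higher of the pair in treated BT-16 cells (40.3 against 29.8 CPM) and the lower in treated CHLA-266 cells (71.7 against 76 CPM).

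The AKR1C genes encode hydroxysteroid dehydrogenases, of which AKR1C1 inactivates progesterone, AKR1C2 reduces dihydrotestosterone, AKR1C3 makes testosterone and prostaglandin F, and AKR1C4 serves bile acid synthesis in the liver. In BT-16, *AKR1C1* went from 3362 counts before to 20414 after treatment, and in CHLA-266 from 4564 to 32651. Its level thus went from 48.7 to 353 CPM and from 74.1 to 628 CPM, a log2 fold change of 3.0 ± 0.31 (SE). Treated and untreated libraries did not overlap.

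*AKR1C2* went from 1781 to 10502 counts (BT-16) and from 2333 to 24046 (CHLA-266). In CPM these were 25.8, 182, 37.9, and 463, with a log2 fold change of 3.34 ± 0.41 (SE). *AKR1C3* had fewer counts by more than an order of magnitude, from 165 to 787 (BT-16) and from 222 to 1695 (CHLA-266), and its log2 fold change was 2.95 ± 0.44 (SE). In both genes the treated CHLA-266 library was the highest of the 4 and the untreated BT-16 library the lowest, the order that *AKR1C1* had as well.

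*AKR1C4* was hardly counted, with 0 counts before and 5 after treatment of BT-16, and 5 before and 55 after treatment of CHLA-266. Only the treated CHLA-266 library stood apart, and the log2 fold change of 3.77 had an SE of 1.92. The 5 counts of treated BT-16 cells came to 1.99-fold of a floor of 3 counts in the untreated library, counting error left aside. The exact 95% counting interval of their log2 ratio to the 0 untreated counts began at 0.13 and had no upper limit. Without the treated BT-16 library, the log2 fold change was 4.66 and passed the threshold. At 46.1 counts per kilobase in treated CHLA-266 cells, *AKR1C4* lay above the 95th percentile of olfactory receptors in that library (21.2), while in the treated BT-16 library its 4.19 counts per kilobase lay near their median of 4.17.

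*AKR1C4* is a liver gene, and markers of hepatocytes were summed in the same libraries. These 16 genes went from 5.09 to 17.4 CPM (BT-16) and from 4.3 to 15.4 CPM (CHLA-266), and 4 of them were higher after treatment (16.1% of all genes were), with 0 lower. *CYP2E1* alone made up 4.03 and 3.48 CPM of the untreated sums. *ALB*, which encodes albumin, had 0 counts in both untreated libraries and 6 and 20 counts in treated BT-16 and CHLA-266 cells. Markers of macrophages also rose in sum, from 6.65 to 11.8 CPM (BT-16) and from 3.72 to 10.4 CPM (CHLA-266). Of these 10 genes, 3 were higher (against the same 16.1%), although *CD68*, which defines these cells, had 0 counts in both treated libraries. *PTPRC* (4.16 CPM) and *CSF1R* (2.19 CPM) made up most of the untreated BT-16 sum. *PTPRC* fell to 2.89 CPM in treated BT-16 cells and rose from 0.487 to 1.23 CPM in CHLA-266. *CSF1R* rose to 4.51 CPM in treated BT-16 cells and fell from 2.7 to 1.89 CPM in CHLA-266. The part of these reads in the values of *AKR1C4* was not tested.

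As reads could be shared among the 4 genes, mostly between *AKR1C1* and *AKR1C2*, their counts were also summed. The sum does not depend on how shared reads were split within the group, but it would miss any that were left uncounted. The sum went from 5308 to 31708 counts (BT-16) and from 7124 to 58447 (CHLA-266). It corresponded to 76.9, 548, 116, and 1125 CPM and a log2 fold change of 3.12 ± 0.35 (SE). The sum was thus as far apart between the conditions as its 3 larger members, and its groups did not overlap.

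Within the sum, the shares of the paralogs were nearly alike in 3 libraries and differed in the fourth. *AKR1C2* made up 33.6% of the AKR1C counts in untreated BT-16 cells (exact Clopper-Pearson 95% interval 32.3 to 34.8), 33.1% in treated BT-16 cells (32.6 to 33.6), and 32.7% in untreated CHLA-266 cells (31.7 to 33.9). In treated CHLA-266 cells the share of *AKR1C2* was 41.1% (40.7 to 41.5), with *AKR1C1* at 55.9% in place of 63.3% to 64.4%. *AKR1C3* kept to 2.48% to 3.12% in all 4 libraries. *AKR1C4* made up 0.0158% to 0.0941% in the 3 libraries with counts, and its 0 counts in untreated BT-16 cells allow a share of up to 0.0565% by the floor of 3 counts and 0.0695% by the exact interval. With 1 library behind each share, these intervals cover counting error only.

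**Figure D2:**
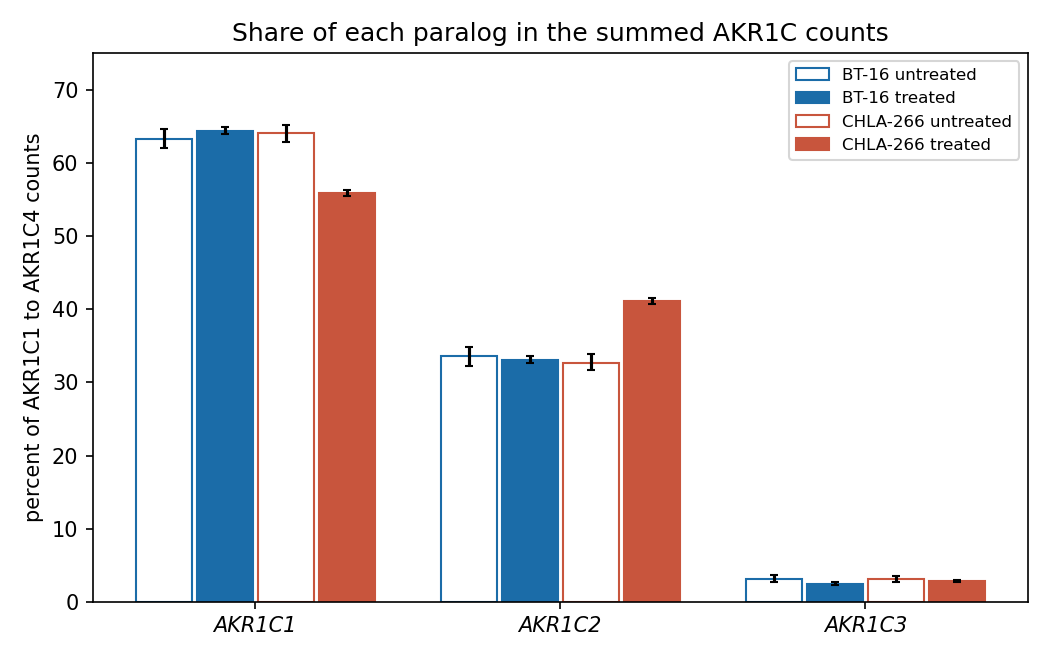
Share of *AKR1C1*, *AKR1C2*, and *AKR1C3* in the summed AKR1C counts of each library, in percent, with exact 95% counting intervals (open bars untreated, filled bars treated). The treated CHLA-266 library has the highest *AKR1C2* bar, at 41.1%, and the lowest *AKR1C1* bar, at 55.9%.

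*AKR1B1* encodes aldose reductase, the first enzyme of the polyol pathway, and *AKR1B10* encodes a close relative that reduces retinal and other aldehydes. The genes lie on chromosome 7 of hg38, *AKR1B1* (ENSG00000085662, minus strand) at 134442356 to 134459284 and *AKR1B10* (ENSG00000198074, plus strand) at 134527567 to 134541412, with 75.8% identical coding bases. Both had at most 18 counts before treatment. *AKR1B10* went from 16 to 501 counts (BT-16) and from 14 to 174 (CHLA-266), a log2 fold change of 4.70 ± 0.63 (SE) and the largest of the members in absolute size.

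*AKR1B1* went from 2 to 118 counts (BT-16) and from 18 to 135 (CHLA-266), and its log2 fold change was 3.85 ± 0.99 (SE). The treated libraries were close to each other, and the untreated ones differed, so that leaving out untreated CHLA-266 cells moved the value to 6.22. Low counts widen these values, and on the deposited VST scale, which compresses low counts, the differences were 1.08 for *AKR1B1* and 1.64 for *AKR1B10*. Their treated levels were above the 95th percentile of olfactory receptors, with *AKR1B1* at 86.7 (BT-16) and 99.2 (CHLA-266) counts per kilobase against 30 and 21.2. *AKR1B10* had 309 and 107 counts per kilobase in the same libraries. In untreated cells, *AKR1B1* had 1.47 (BT-16) and 13.2 (CHLA-266) and *AKR1B10* 9.88 and 8.65 counts per kilobase, against a 95th percentile of 4.14 and 3.59, so that *AKR1B1* in BT-16 cells alone lay below it.

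The members most abundant in untreated cells per length of the main transcript moved less. *CBR1* (ENSG00000159228, chromosome 21, 36069941 to 36073166, plus strand), the main cytosolic reductase of doxo in many tissues, went from 5625 to 9987 counts (BT-16) and from 5530 to 10199 (CHLA-266). In CPM these were 81.5, 173, 89.8, and 196, a log2 fold change of 1.11 ± 0.16 (SE), and the lines lay closer together than the conditions. *CBR3* (ENSG00000159231, 36135079 to 36146562 of the same strand), a relative with 77% identical coding bases, had 2 counts in treated BT-16 cells and 0 in the other libraries, so no fold is given and a change was not detectable at this depth.

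*AKR1A1* (ENSG00000117448, chromosome 1, 45550543 to 45570049, plus strand) went from 7771 to 10012 counts (BT-16) and from 5543 to 6154 (CHLA-266), or 113, 173, 90, and 118 CPM. Its log2 fold change of 0.52 ± 0.22 (SE) did not pass the threshold, but in the blocked test it was 0.51 and passed. It passed as well without treated CHLA-266 cells, with 0.79. The treated CHLA-266 level was close to the untreated BT-16 level, so that the difference between the conditions was about as large as that between the lines.

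*AKR7A2* (ENSG00000053371, chromosome 1, 19303965 to 19312144, minus strand), which reduces aflatoxin dialdehyde and succinic semialdehyde, went the other way. It went from 4453 to 1702 counts (BT-16) and from 2865 to 1249 (CHLA-266), or 64.6, 29.4, 46.5, and 24 CPM. The log2 fold change was -1.05 ± 0.21 (SE), and both treated libraries lay below both untreated ones.

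Within each cell line, treated and untreated libraries were set side by side as log2 ratios with exact 95% counting intervals. The intervals of *CBR1* overlapped between the lines, with 1.08 (1.04 to 1.13) in BT-16 and 1.13 (1.08 to 1.17) in CHLA-266 cells. *AKR7A2* had ratios of -1.13 (-1.21 to -1.05) and -0.95 (-1.05 to -0.86), and *AKR1A1* of 0.62 (0.58 to 0.66) and 0.40 (0.34 to 0.45). All of these lie on the same side of 0 in both lines.

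For *AKR1C1*, *AKR1C2*, and *AKR1C3* the ratio was higher in CHLA-266 cells, and for the AKR1B genes it was higher in BT-16 cells. *AKR1C4* had 0 counts in untreated BT-16 cells and was not compared between the lines in this way. *AKR1C1* had 2.86 (2.80 to 2.91) in BT-16 and 3.08 (3.04 to 3.13) in CHLA-266 cells, and *AKR1C2* 2.81 (2.74 to 2.89) and 3.61 (3.55 to 3.67), which is 7.01-fold against 12.2-fold. The ratios of *AKR1C3* were 2.51 (2.26 to 2.76) and 3.17 (2.97 to 3.39). *AKR1B10* had ratios of 5.18 (4.51 to 6.04) in BT-16 and 3.83 (3.09 to 4.78) in CHLA-266 cells, and *AKR1B1* of 5.82 (4.25 to 9.20) and 3.12 (2.44 to 3.95). With 1 library per line and condition, these differences between the lines have no replicate check.

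**Figure D3:**
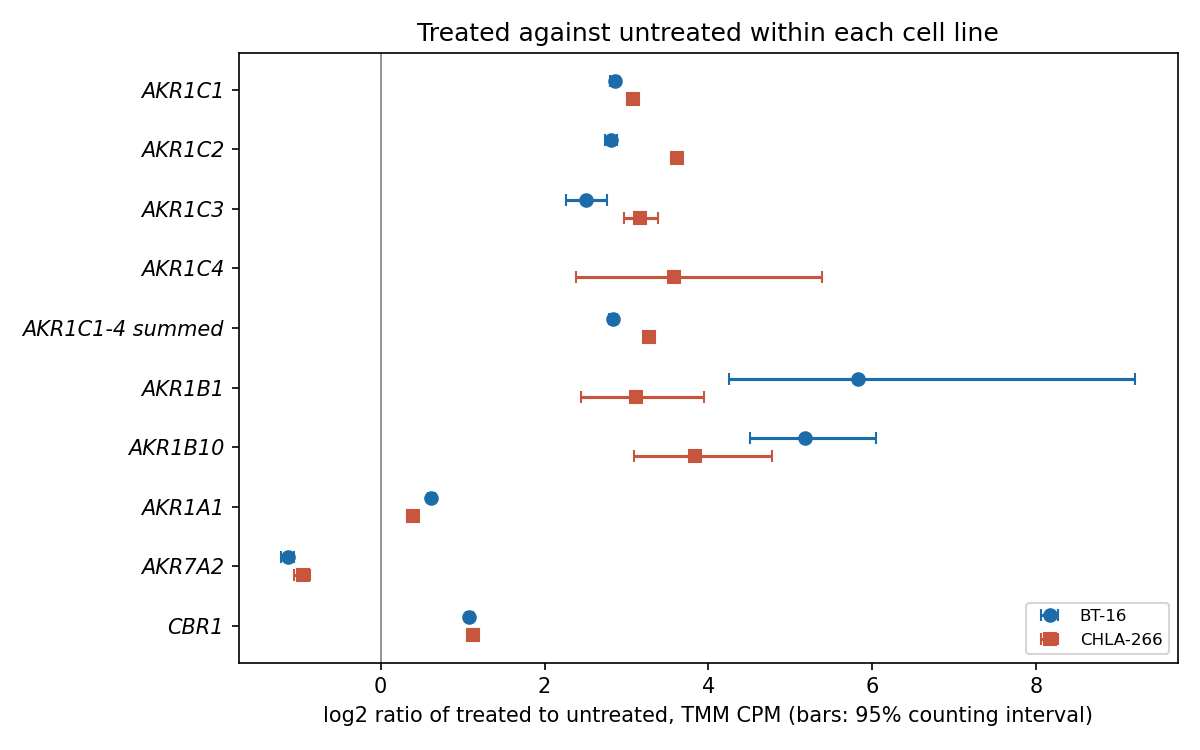
Log2 ratio of treated to untreated CPM in BT-16 (circles) and CHLA-266 (squares), with exact 95% counting intervals as bars. *AKR1C4* in BT-16 is not drawn because its untreated count was 0, *CBR3* is left out, and *AKR7A2* is the sole gene to the left of 0, at -1.13 and -0.95.

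The comparison of the cell lines, with the condition in the model, was not used to choose the genes and was tested. *AKR1C1*, *AKR1C2*, and *AKR1C3* were lower in BT-16 than in CHLA-266 cells. The log2 difference was -0.72 ± 0.15 (SE) for *AKR1C1* (adjusted p = 0.00368 in edgeR), -0.96 ± 0.17 for *AKR1C2* (adjusted p = 0.000505), and -0.94 ± 0.25 for *AKR1C3* (adjusted p = 0.0384). These 3 of 10 genes stand beside 0.836% of all genes that were lower in BT-16, and 0 of 10 beside 1.46% that were higher. At an unadjusted p under 0.05 there were 2 members higher in BT-16, *AKR1A1* (0.44 ± 0.15, adjusted p = 0.156) and *AKR7A2* (0.38 ± 0.17, adjusted p = 0.378). DESeq2 and limma counted 2 lower and 0 higher. The 3 paralogs could share reads, mostly *AKR1C1* and *AKR1C2*, so they cannot be taken as 3 separate measurements. How many reads were shared was not tested.

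The difference lay in the same direction in both conditions. In untreated cells *AKR1C1* was 1.53-fold, *AKR1C2* 1.46-fold, and *AKR1C3* 1.51-fold higher in CHLA-266, and in treated cells 1.78-fold, 2.55-fold, and 2.39-fold. *CBR1* had a log2 difference of -0.16 ± 0.14 (adjusted p = 0.879), with ratios of -0.14 in untreated and -0.18 in treated cells. *AKR1B1* and *AKR1B10* had log2 differences of -1.42 ± 0.93 (adjusted p = 0.717) and 0.83 ± 0.53 (adjusted p = 0.698), and *AKR1C4* of -3.95 ± 2.29 (adjusted p = 0.641), none of which passed the threshold.

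The model of the cell lines has 1 residual degree of freedom, and the call of *AKR1C3* was lost in 5 of 10 alternatives (adjusted p from 0.00625 to 1). Without the condition in the model, where the treatment difference enters the spread, none of the 3 genes passed (adjusted p = 1 for each).

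**Figure D4:**
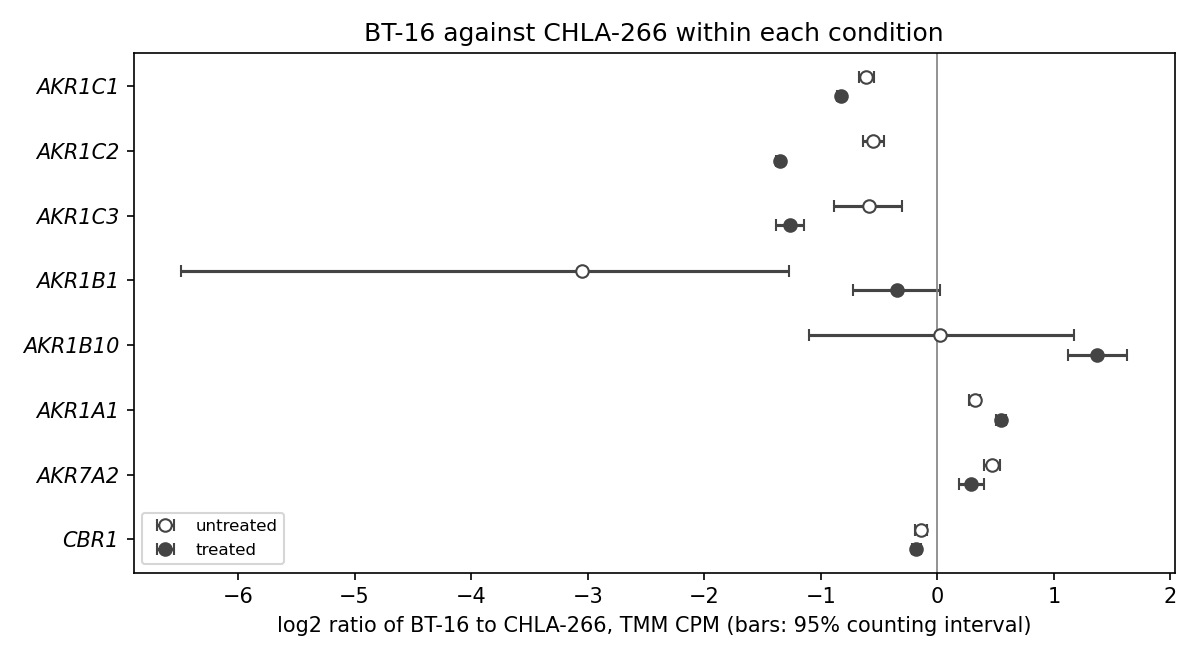
Log2 ratio of BT-16 to CHLA-266 CPM in untreated (open) and treated (filled) cells for the 8 members with counts in every library, with exact 95% counting intervals. *AKR1C1*, *AKR1C2*, and *AKR1C3* lie to the left of 0 in both conditions, and *AKR1B10* lies near 0 (0.02) in untreated and to the right (1.37) in treated cells.

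Among 10339 genes that reached 100 counts in each library, those with a pattern most like *AKR1C1* were *LYST*, *SLC4A11*, and *AKR1C3*. Likeness was the root mean square difference of the log2 CPM values over the 4 libraries after centring, and it was 0.136, 0.16, and 0.165. *LYST* went from 2317 to 11915 counts (BT-16) and from 2594 to 17443 (CHLA-266). *AKR1C2* came at rank 10, with 0.22. Closest to *CBR1* were *WASHC2A* (0.0197), *FBXO34* (0.0335), and *JAK2* (0.0348), while *AKR1A1* stood at rank 1751. With 4 libraries, such likeness is a description.

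Further aldo-keto and carbonyl reductases were read from a list of relatives that were not among the 10 genes. Of 15 relatives tested, 1 was higher and 1 lower after treatment, beside 16.1% and 19.1% of all genes, with a median log2 fold change of 0.39. *DHRS3*, which reduces retinal, was higher, from 2 to 132 counts in BT-16 but from 8 to 24 in CHLA-266 (log2 fold change 4.09 ± 1.19 (SE), adjusted p = 0.0286), and this call was lost without the untreated (adjusted p = 0.0789) or the treated BT-16 library (adjusted p = 0.41). Without the untreated BT-16 library, 0 of the 15 genes were higher. *DCXR*, which reduces dicarbonyls and xylulose, fell from 3024 to 554 and from 2328 to 646 counts (-1.89 ± 0.22 (SE), adjusted p = 0.000449). With a block for the cell line, 3 of the 15 genes were lower.

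Reductases that act on anthracyclines and other quinones by another route, the transfer of single electrons or the reduction of the quinone, were read from a further list. Of 16 such genes, 5 were higher and 4 lower, beside 16.1% and 19.1% of all genes, with a median log2 fold change of 0.15. *TXNRD1*, thioredoxin reductase, was higher (1.10 ± 0.24 (SE), adjusted p = 0.00988), as was *CYB5R1*, a cytochrome b5 reductase (0.82 ± 0.17, adjusted p = 0.00781). *NOS2*, a nitric oxide synthase, was higher as well (3.76 ± 0.84, adjusted p = 0.0098). Its counts were low, from 6 to 119 (BT-16) and from 10 to 71 (CHLA-266). The mitochondrial genes *FDXR* (-0.80 ± 0.16, adjusted p = 0.00635), *NDUFV1* (-0.76 ± 0.16, adjusted p = 0.00709), and *TXNRD2* (-0.69 ± 0.20, adjusted p = 0.0294) were lower. *NQO1*, the quinone reductase most often used as an NRF2 marker, went from 67043 to 57291 counts (BT-16) and from 50352 to 65473 (CHLA-266), and its log2 fold change of 0.33 did not pass the threshold (adjusted p = 0.203). With either untreated library left out, 2 of these genes were lower. The call of *TXNRD1* was lost without untreated BT-16 cells (adjusted p = 0.0539), and that of *TXNRD2* without any one library but treated CHLA-266 (adjusted p from 0.0924 to 0.103).

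Of 28 regulators and targets of NRF2, 12 were higher and 1 was lower, with a median log2 fold change of 0.61, beside 16.1% and 19.1% of all genes. *HMOX1*, heme oxygenase, rose from 2550 to 20971 counts (BT-16) and from 1959 to 17950 (CHLA-266, log2 fold change 3.36, adjusted p = 5.22e-06), and *GCLC*, the catalytic subunit of glutathione synthesis, from 2185 to 13850 and from 2022 to 13962 (2.98, adjusted p = 7.2e-06). *MAFF*, a small MAF partner, rose by 2.09 on the log2 scale (adjusted p = 0.000403). *KEAP1*, which targets NRF2 for degradation, fell from 6165 to 1832 and from 4556 to 1576 counts (-1.40, adjusted p = 0.000589). The RNA of NRF2 itself, *NFE2L2*, had a log2 fold change of 0.38 that did not pass (adjusted p = 0.123). With a block for the cell line, 3 genes of this list were lower. *NQO1* and *TXNRD1* stand in this list and in the one on quinones.

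Aldehyde dehydrogenases, which oxidize the aldehydes that these reductases reduce, formed another list. Of 19 genes, 6 were higher and 3 lower, beside 16.1% and 19.1% of all genes, with a median log2 fold change of 0.58, and 5 were lower in the blocked test. *ALDH3A2*, which handles fatty aldehydes, was the most abundant of those named, from 25736 to 46300 counts (BT-16) and from 18930 to 34776 (CHLA-266), a log2 fold change of 1.11 ± 0.18 (SE, adjusted p = 0.00271). *ALDH1L1* (4.80, adjusted p = 0.0015) and *ALDH1L2* (1.23, adjusted p = 0.00689), enzymes of folate metabolism, were higher too. The counts of *ALDH1L1* were low, from 5 to 216 (BT-16) and from 10 to 149 (CHLA-266). *ALDH1B1* (-1.13, adjusted p = 0.00121), *ALDH16A1* (-1.35, adjusted p = 0.00322), and *ALDH6A1* (-1.30, adjusted p = 0.00803) were lower.

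Other steroid dehydrogenases and reductases, which share substrates with the AKR1C enzymes, gave 3 higher and 3 lower of 19 genes, which is near the 16.1% and 19.1% of all genes, with a median log2 fold change of 0.06. *HSD17B14* rose by 2.20 on the log2 scale (adjusted p = 0.00134), from 298 to 1547 counts (BT-16) and from 498 to 1571 (CHLA-266). *HSD17B2* (41 and 30 counts in treated BT-16 and CHLA-266 cells, adjusted p = 0.017) and *SRD5A2* (25 and 22, adjusted p = 0.0388) had 0 counts in both untreated libraries. *HSD17B11* (-0.93, adjusted p = 0.00702), *SRD5A3* (-2.24, adjusted p = 0.0237), and *HSD17B7* (-1.06, adjusted p = 0.0331) were lower. The call of *SRD5A2* was lost without any one library (adjusted p from 0.0742 to 0.106), that of *SRD5A3* without either CHLA-266 library (0.076 without the treated and 0.0713 without the untreated one), and that of *HSD17B7* without either BT-16 library (adjusted p = 0.0651 and 0.169).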

How the data were processed

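Per the methods, the authors deposited estimated counts, that is reads per gene, not normalized, and the 5 values that were not whole numbers, in 2 genes, were rounded. The authors demultiplexed the reads with bcl2fastq 2.20, trimmed them with Skewer, aligned them to hg38 with STAR, counted features, and removed sex chromosome genes. The log2 values that the authors deposited are VST values of DESeq2 and were used in 1 alternative. The 383 genes with a total of 0 were left out of 18449, and 18066 were tested with edgeR 4.0.16 (quasi-likelihood test, TMM, Benjamini-Hochberg over all genes) in R 4.3.3, treated against untreated without the cell line and BT-16 against CHLA-266 with the condition. SE is the log2 fold change divided by the square root of F. The libraries of a cell line are paired by the line itself, and their deviations from the means of the conditions correlated at 0.263 over 12620 genes, which are not independent. An exact permutation test of 2 against 2 libraries cannot go below p = 0.333.

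Log2 ratios of single libraries had 0.5 counts added, and their intervals, like those of shares, are exact and cover counting error only. How pairs of reads were counted is not given in the sources used here, and low counts were mostly even, so these intervals may be too narrow. A count of 0 was given a floor of 3 counts per library. Lengths and coding sequences come from GENCODE 44 (hg38) and promoters from RefSeq (GRCh38.p14). The scripts were tested on simulated data.

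The members and lists were chosen with earlier results of these data known. Named besides the 10 members are the 3 genes of smallest adjusted p value per list and direction, *NFE2L2*, *KEAP1*, *NQO1*, and the 3 genes most like *AKR1C1* and *CBR1*. *SMARCB1*, *ALB*, *CYP2E1*, *CD68*, *PTPRC*, *CSF1R*, *AKR7A3*, *KCNAB3*, and *AKR1C2* as a gene like *AKR1C1* were named after their values were seen. Alternatives were a block for the cell line, DESeq2 1.42.0, other scalings and filters, halved counts, limma 3.58.1 on VST values, the AKR1C sum, and each library left out.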

Additional observations from a re-analysis of the deposited data

Results flagged for a closer look

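Of 54 genes whose ratios were checked in both lines, 2 went in opposite directions in the cell lines, with counting intervals that did not include 0. Both are relatives of the 10 reductases. *AKR7A3*, the closest relative of *AKR7A2* here with 84.6% identical coding bases, went from 36 to 106 counts (BT-16) and from 77 to 25 (CHLA-266). Its log2 ratio of treated to untreated was 1.80 (1.26 to 2.40) in BT-16 and -1.36 (-2.09 to -0.71) in CHLA-266 cells, while *AKR7A2* was lower after treatment in both. Of its stretches of 100 bases, 15.1% also occur in *AKR7L*. *KCNAB3*, a potassium channel subunit with an aldo-keto reductase fold, went from 327 to 209 counts (BT-16) and from 211 to 267 (CHLA-266), with log2 ratios of -0.39 (-0.65 to -0.14) and 0.58 (0.32 to 0.85). The difference between the lines was not tested in either gene, since each line had 1 library per condition.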

How the results depend on the processing

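Over 16 alternatives, 1 reductase was lower after treatment. Those that kept the 10 genes gave 6 or 7 higher. The alternative with the AKR1C genes replaced by their sum, which has fewer entries, gave 4 higher. The summed AKR1C log2 fold change ranged from 2.52 to 3.54 and no direction was reversed. *AKR1A1* (0.23 to 0.88) passed the threshold in 7 of 15 alternatives. The median of all genes was 0.24 with TMM and 0.59 with upper-quartile normalization. Between the cell lines, library totals gave 1 member higher in BT-16 and leaving out the condition gave 0 lower. With the cell line as a replicate block, 3 NRF2 genes (also 3 in DESeq2), 5 aldehyde dehydrogenases, and 3 other reductases of the family were lower, and DESeq2 with the block gave 8 quinone reductases higher. It moved no other count of calls by over 1.5 times. When 10 counts were required in each library, the higher genes numbered 3 aldehyde dehydrogenases, 0 family members, 3 quinone reductases, and 1 steroid enzyme, and 2 quinone reductases were lower. DESeq2 without the cell line and the filter of edgeR each gave 2 family members and 6 steroid enzymes higher, and limma on VST values gave 5 steroid enzymes. Upper-quartile normalization gave 1 quinone reductase and 1 steroid enzyme lower, and library totals gave 2 quinone reductases. Without 1 library, family members higher ranged from 0 to 1 and quinone reductases lower from 2 to 4. The causes of these shifts were not tested. Leaving out a library of the cell line comparison leaves no residual degree of freedom and was not run. *AKR1C4*, *AKR1B1*, and *CBR3* had no value under some filters. Depth limits *AKR1C4*, *AKR1B1*, and *CBR3*, which had 0 to 18 counts in untreated cells.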
